A study of Mus musculus with 9 samples.

Results

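The Slc25 genes encode the mitochondrial carriers, and 44 of the 29237 genes in the expression table belonged to the family. Members were the rows whose gene symbol was Slc25a followed by a number and whose transcript type included protein-coding, so a Slc25a5 pseudogene in the table was left out. Messenger RNA was sequenced from the heart (whole organ, as far as the labels say) of wild-type C57BL/6 mice aged 8 to 12 weeks, in 3 groups of 3 libraries. The control libraries carried the treatment label Control, with no agent named. The DOX libraries came from mice of the doxorubicin model of dilated cardiomyopathy, and the TPTN libraries from a group the series calls treated with TPTN. The labels spell out neither TPTN nor any dose, route or day, and they do not say in each sample's treatment field whether the TPTN mice also received doxorubicin. Nothing in the labels says that the 3 libraries of a group came from separate mice, so the p-values below measure the spread between libraries, which may be technical.

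Mitochondrial carriers sit almost all in the inner mitochondrial membrane, where they exchange nucleotides, phosphate, carboxylates, amino acids, acylcarnitines, cofactors and metal ions between the cytosol and the matrix. They share a fold built from repeated pairs of membrane-spanning helices and are made in the cytosol, from where the TIM22 translocase inserts them. In heart muscle the adenine nucleotide translocator brings ADP in and ATP out, the phosphate carrier supplies phosphate to ATP synthase, and the carnitine-acylcarnitine carrier delivers fatty acids for oxidation. Doxorubicin is an anthracycline used against cancer, and its toxicity to the heart involves mitochondria.

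Levels are FPKM, fragments counted per kilobase of transcript and relative to all mapped fragments of the library, so they can be compared between genes on a per-length scale. Changes were tested with limma on log2(FPKM + 1) over the 12500 genes with a mean of at least 0.5 FPKM, and a change was called at a Benjamini-Hochberg adjusted p under 0.05 over all of them. Transcripts encoded by mitochondrial DNA held 49.8 to 50.9% of the summed FPKM in control, 44.7 to 46.2% in DOX and 48.1 to 48.7% in TPTN libraries. Abundant nuclear copies of these genes held another 19.2 to 19.7% in control, 18.0 to 18.3% in DOX and 18.6 to 19.0% in TPTN libraries. Of the scalings below, 1 leaves both parts out. FPKM is relative to the library total, so a change in either share shifts every other level in the table. In bulk heart RNA, fewer cells of a type and less RNA per cell cannot be told apart. Of the heart muscle markers, 7 of 7 were abundant, with a summed level of 10610 to 11897 FPKM in control, 12008 to 13818 in DOX and 12174 to 12724 in TPTN libraries. DOX replicate 1 stood apart in markers of the atria: its 4 atrial markers summed to 2444 FPKM, against 196 to 289 in the other DOX libraries, 51.4 to 148 in control and 52.8 to 121 in TPTN libraries. Outside DOX replicate 1 these sums were almost all Nppa, at 288 and 195 FPKM in DOX replicates 2 and 3. Myl7, Myl4 and Sln were at 539, 84.3 and 85.3 FPKM in DOX replicate 1 and at most 0.889 FPKM in every other library.

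The family was dominated by Slc25a4, the heart and muscle isoform of the adenine nucleotide translocator, which ranked 36 in the whole table by mean FPKM. Slc25a4 made up 64.9 to 65.0% of the family's summed FPKM in control, 65.1 to 66.5% in DOX and 62.7 to 63.5% in TPTN libraries. The next members were Slc25a3, the phosphate carrier, with a mean of 180 FPKM over the 9 libraries, Slc25a11, the oxoglutarate-malate carrier, with 157, and Slc25a5, the more widely expressed translocator isoform, with 126. These 4 members stood in this order in 9 of 9 libraries. Below them, 5 members lay between 10 and 100 FPKM, 25 between 1 and 10, 3 between 0.5 and 1, and 7 under 0.5. Of the 43 neighbouring pairs in the order of levels, 13 kept their order in all 9 libraries and 30 did not. The order is thus loose mainly below about 10 FPKM, where for example Slc25a46 was above Slc25a51 in 5 libraries of 9. Above 10 FPKM, Slc25a20 and Slc25a13, with means of 29.1 and 27.4 FPKM, were also not in a fixed order. Slc25a20 was the higher in 6 libraries of 9.

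**Figure D1:**
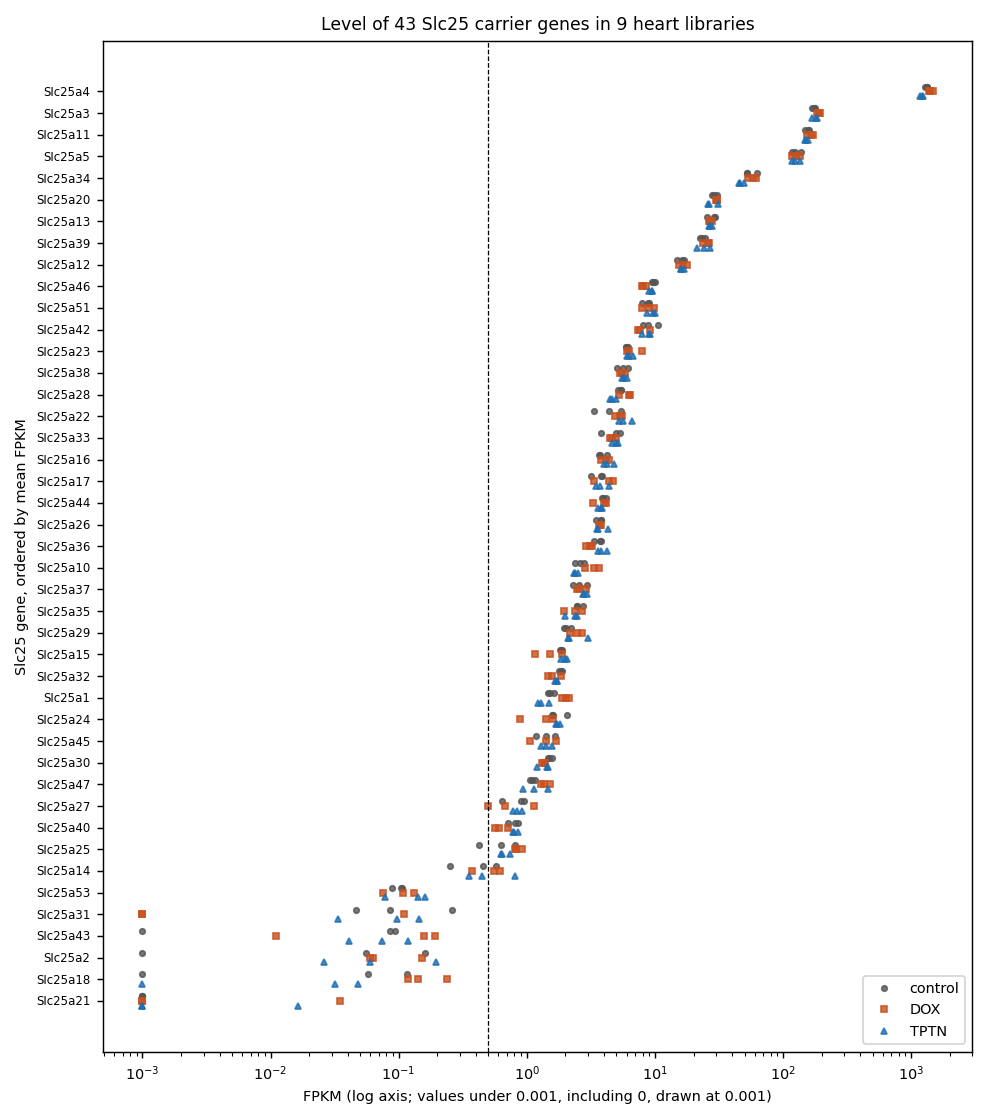
FPKM of 43 Slc25 genes (rows, ordered by mean) in each of the 9 libraries on a log axis, with control as circles, DOX as squares and TPTN as triangles; the dashed line marks the 0.5 FPKM mean that a gene needed to be tested. Slc25a4 lies alone near 1300 FPKM, most members lie between 1 and 10 FPKM, and the 7 members at the bottom have means under 0.5.

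The 7 members that were not tested included tissue-restricted forms. Slc25a14, a brain-enriched carrier related to the uncoupling proteins, was just under the minimum with a mean of 0.493 FPKM. Slc25a25, a calcium-regulated ATP-Mg/phosphate carrier, was the tested member closest above it, with 0.713 FPKM. Slc25a31, the translocator isoform of the testis, averaged 0.0864 FPKM, and Slc25a18 and Slc25a2, a glutamate and an ornithine carrier, averaged 0.0833 and 0.0859. Slc25a43 and Slc25a53, carriers without a settled substrate, averaged 0.0861 and 0.111 FPKM. Slc25a21, the oxodicarboxylate carrier, was listed at 0 in 7 libraries. Slc25a43 lies 18448 bases from Slc25a5 on chromosome X, and these neighbours stood at 0.0861 and 126 FPKM.

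No member passed the test between DOX and control, 2 of 37 fell in TPTN against DOX, and none passed between TPTN and control. In DOX against control, 0 of 37 members were called higher, where 2.23% of all tested genes were, and 0 lower, where 0.4% were. At an unadjusted limma p under 0.05, 3 members were higher and 3 lower, or 8.11% each way against a background of 14.6% and 3.47%. In TPTN against DOX, 0 members were called higher, where 0.792% of all genes were, and 2 lower, or 5.41% against 2.46% of all genes. These 2 were Slc25a1, the citrate carrier, and Slc25a4. At an unadjusted limma p under 0.05 the same comparison had 4 members higher and 5 lower, against backgrounds of 7.78% and 12.9%. In TPTN against control, 0 members were called higher or lower, against backgrounds of 0.336% and 0.384%, and 1 higher and 2 lower passed an unadjusted limma p under 0.05, against 9.02% and 4.12%.

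The median log2 change of the 37 tested members was 0.05 in DOX against control, where the median of all tested genes was 0.04. It was -0.0027 in TPTN against DOX, beside -0.0079 for all genes, and 0.01 in TPTN against control, beside 0.04. With median ratios, quantile normalization and the sum without mitochondrially encoded genes and copies, in that order, the family median turned to -0.01, -0.06 and -0.10 in DOX against control, to 0.0087, 0.04 and 0.10 in TPTN against DOX, and to -0.03, -0.0095 and -0.01 in TPTN against control. All 3 comparisons use the same 3 groups, and each pair of comparisons shares 3 libraries, so a high DOX value appears in both comparisons that include DOX. Groups did not overlap for 9 members between DOX and control, 6 of them higher with DOX and 3 lower (background 17.7% and 5.1%), for 12 between TPTN and DOX, 4 higher with TPTN and 8 lower (background 10.4% and 14.1%), and for 5 between TPTN and control, 0 higher with TPTN and 5 lower (background 15.2% and 6.03%).

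**Figure D2:**
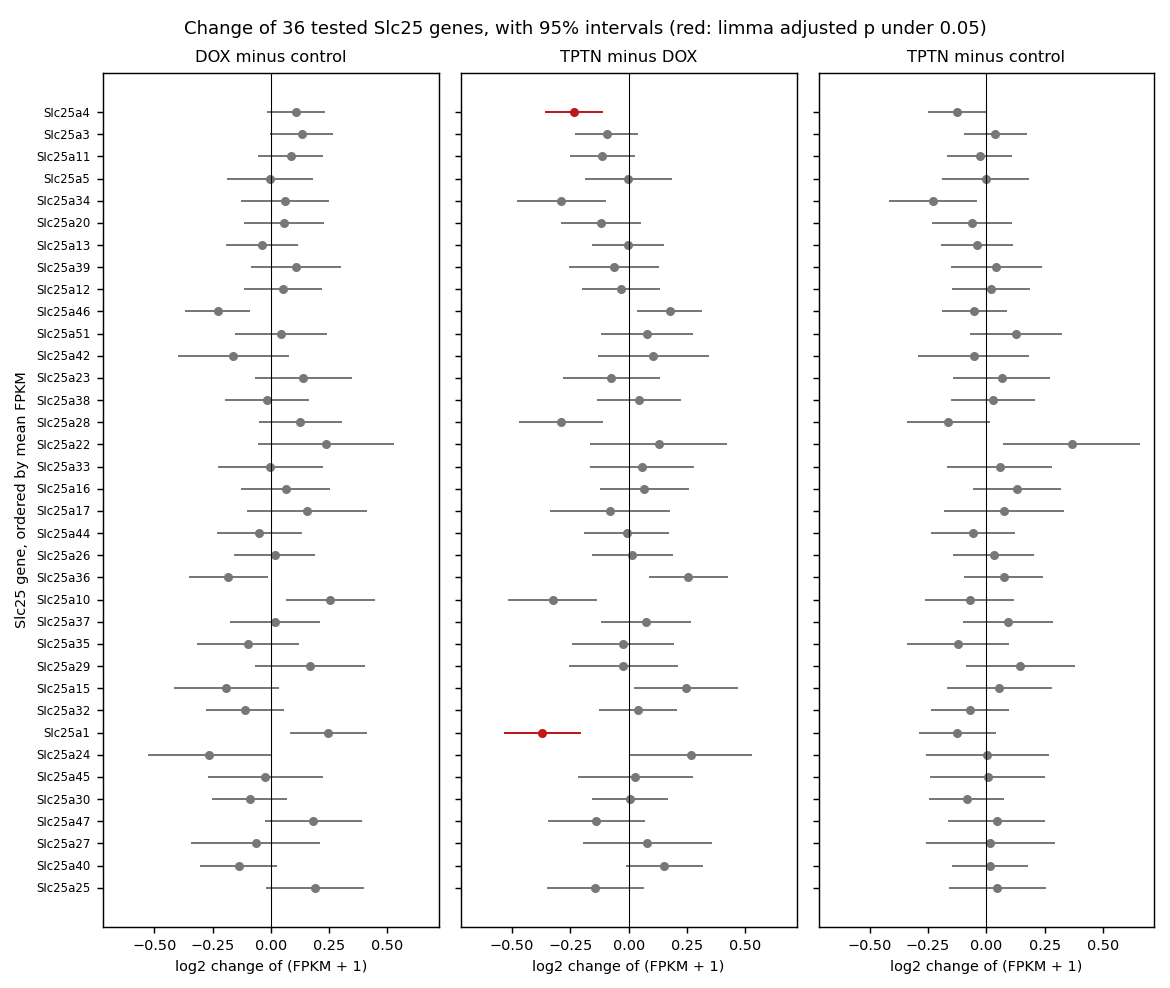
Log2 change of (FPKM + 1) for 36 tested Slc25 genes (rows, ordered by mean FPKM) in the 3 comparisons, as points with 95% intervals; red marks a limma adjusted p under 0.05. The red points are Slc25a4 at -0.23 and Slc25a1 at -0.37, both in TPTN minus DOX.

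Among the carriers of adenine nucleotides and phosphate, Slc25a4 fell in TPTN against DOX while its sister isoform Slc25a5 was not called. Slc25a4 (ENSMUSG00000031633) lies on the minus strand of chromosome 8 at 46206797 to 46211284 in GRCm38. Its level was 1332, 1288 and 1324 FPKM in controls, 1366, 1406 and 1476 with DOX, and 1169, 1235 and 1206 with TPTN. The 3 groups did not overlap, with every DOX library above every control library and every TPTN library below both. The mean was 1416 ± 55.7 FPKM (SD, n = 3) in DOX and 1203 ± 32.8 in TPTN, a difference of -15.0%. On the log2(FPKM + 1) scale the change was -0.23 with a standard error of 0.05 and a limma adjusted p of 0.0438. DOX against control gave 0.11 (limma adjusted p 0.339), a sign that turned to -0.0014 with quantile normalization and to -0.06 when libraries were scaled to their sum without mitochondrially encoded genes and their nuclear copies. TPTN against control gave -0.13 (limma adjusted p 0.347).

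The call on Slc25a4 in TPTN against DOX was close to the threshold. Under the scaling without mitochondrially encoded genes and copies the change was -0.10 with a limma adjusted p of 0.170, where the median over all tested genes was 0.08 and no longer -0.0079. Relative to that median Slc25a4 stood at -0.23 as deposited and at -0.19 after scaling. Over 18 alternatives the log2 change ranged from -0.26 to -0.10 and the adjusted p from 0.0381 to 0.256. The 7 heart muscle markers had a median log2 change of -0.20 in TPTN against DOX, with 0 of 7 called, and of 0.20 in DOX against control, where Myl2 (0.38) and Tnni3 (0.28) rose and Ryr2 (-0.56) fell. The calls on Myl2 and Tnni3 were lost under each of the 3 other scalings, at 0.21 to 0.32 and 0.11 to 0.27, and that on Ryr2 was not. Of 4 fibroblast markers, Col3a1, a fibrillar collagen, rose in TPTN against DOX (0.65, limma adjusted p 0.0282) and against control (0.74, limma adjusted p 0.0285). Of 4 endothelial markers, Kdr, a receptor for vascular endothelial growth factor, rose in the same comparisons (0.48 and 0.66, limma adjusted p 0.0303 and 0.0161). Both genes were above 0 in these comparisons in all 19 fits and kept their calls under the 3 other scalings, and over the 19 fits Col3a1 was called in 12 and 12 and Kdr in 12 and 15, calls being lost with libraries left out among others. The summed fibroblast markers were at 65.7 to 68.9 FPKM in control, 66.6 to 93.8 in DOX and 69.7 to 80.2 in TPTN libraries, and the endothelial ones at 77.3 to 85.5, 82.3 to 86.0 and 81.2 to 99.8. Dcn went the other way from Col3a1, at 49.1 to 71.6 FPKM in DOX and 41.1 to 47.8 in TPTN libraries. Col1a1 went the same way as Col3a1, at 5.21 to 7.75 and 9.04 to 9.37 FPKM. Pdgfra overlapped between these groups, as did the endothelial markers Pecam1, Cdh5 and Tek. The part of these markers in the result was not tested. Without DOX replicate 1, the library with the high atrial markers, Slc25a4 was at -0.26 (limma adjusted p 0.0440). The call was lost without any 1 of the other 8 libraries, with limma adjusted p of 0.0596, 0.0536 and 0.0816 without control replicates 1, 2 and 3, 0.114 and 0.125 without DOX replicates 2 and 3, and 0.132, 0.0751 and 0.112 without TPTN replicates 1, 2 and 3.

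Slc25a5 (chromosome X, 36795651 to 36798807) was at 137, 118 and 124 FPKM in controls, 118, 134 and 126 with DOX, and 117, 137 and 124 with TPTN. The groups overlapped fully. Its log2 change was -0.0015 in TPTN against DOX, with a 95% interval from -0.18 to 0.18. With the sum scaled without mitochondrially encoded genes and copies, however, Slc25a5 stood at 0.18 in TPTN against DOX. Slc25a3 (chromosome 10, 91116574 to 91124059) was at 178, 168 and 174 FPKM in controls, 191, 196 and 183 with DOX, and 169, 182 and 182 with TPTN. All DOX libraries were above the control and TPTN libraries, but the log2 changes of 0.13 (limma adjusted p 0.274) and -0.09 (limma adjusted p 0.405) did not pass. Both changed sign with quantile normalization (-0.05 and 0.09) and without mitochondrially encoded genes and copies (-0.03 and 0.04).

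The calcium-regulated ATP-Mg/phosphate carriers, which adjust the adenine nucleotide content of the matrix, were far less abundant than the translocators. Slc25a23 averaged 6.37 FPKM, Slc25a24 1.59 and Slc25a25 0.713 over the 9 libraries. None was called. Slc25a24 was at 0.880 to 1.59 FPKM in DOX and at 1.68 to 1.81 in TPTN libraries, with log2 changes of -0.26 in DOX against control (limma adjusted p 0.269) and 0.27 in TPTN against DOX (limma adjusted p 0.230). Slc25a24, and Slc25a10, Slc25a15, Slc25a22 and Slc25a46 below, lie outside the rule for named members and were singled out after their values were seen.

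Among the carriers of carboxylates and aspartate, Slc25a1 fell in TPTN against DOX and none of the malate-aspartate carriers was called. Slc25a1 exports citrate, which the cytosol can use for fatty acid and sterol synthesis. It lies on the minus strand of chromosome 16 at 17925223 to 17928219 in GRCm38 (ENSMUSG00000003528). Its level was low, at 1.53, 1.62 and 1.47 FPKM in controls, 2.01, 1.90 and 2.12 with DOX, and 1.48, 1.30 and 1.21 with TPTN. Every DOX library was above every control and TPTN library, while the control and TPTN libraries overlapped. The mean was 2.01 ± 0.112 FPKM (SD, n = 3) in DOX and 1.33 ± 0.137 in TPTN, a difference of -33.9%. The log2 change was -0.37 with a standard error of 0.07 and a limma adjusted p of 0.0291, and it was -0.57 with a pseudocount of 0.1 in place of 1, since the pseudocount of 1 understates changes of low genes.

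For Slc25a1 the change from control to DOX was 0.25 (limma adjusted p 0.102), with means of 1.54 and 2.01 FPKM, and TPTN against control gave -0.13 (limma adjusted p 0.513). Over 18 alternatives the log2 change in TPTN against DOX stayed between -0.57 and -0.29 and the adjusted p between 0.0233 and 0.149. Scaled to the sum without mitochondrially encoded genes and copies, it was -0.29 with a limma adjusted p of 0.0570, or -0.37 relative to the median of all genes. Leaving out DOX replicate 1 gave -0.37 (limma adjusted p 0.0437) and leaving out a control library gave adjusted p from 0.0339 to 0.0491, whereas the call was lost without DOX replicate 2 or 3 (limma adjusted p 0.0644 and 0.0778) or TPTN replicate 1, 2 or 3 (0.0623, 0.0708 and 0.0916). Adipocyte markers were near 0, with a sum of 4 markers of at most 0.455 FPKM in any library. The brown adipocyte marker Cidea was not, at 14.4 to 18.3 FPKM in control, 15.7 to 20.5 in DOX and 14.1 to 16.7 in TPTN libraries. Ucp1, the other brown adipocyte marker, was at most 0.0207 FPKM. The part of fat cells in the level of Slc25a1 was not tested.

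Slc25a10, the dicarboxylate carrier that exchanges malate and succinate for phosphate, was likewise highest with DOX. It lies on the plus strand of chromosome 11 at 120491840 to 120499187. Its level was 2.61, 2.36 and 2.81 FPKM in controls, 2.87, 3.35 and 3.66 with DOX, and 2.51, 2.35 and 2.39 with TPTN. DOX was above both other groups without overlap, but neither log2 change passed, at 0.25 in DOX against control (limma adjusted p 0.142) and -0.33 in TPTN against DOX (limma adjusted p 0.0654). Without DOX replicate 1 the change in TPTN against DOX was -0.40 and passed (limma adjusted p 0.0355), the only 1 of 19 fits that did, with adjusted p up to 0.213. Slc25a10 shares 6.60% of its exonic bases with a gene on the opposite strand, and the strand setting of the authors' counting is not given in the sources used here.

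The promoter windows of Slc25a1 and Slc25a10 are shown because the 2 citrate and dicarboxylate carriers were the only carboxylate members with an unadjusted limma p under 0.05 in both comparisons with DOX. They are the 250 bases before the RefSeq start in GRCm38.p6, read 5′ to 3′ on the strand of the gene, chr16:17928220-17928469 (minus) and chr11:120491587-120491836 (plus). Capitals mark matches on either strand to the letters GGGCGG, called a GC box, to the box named for its letters CCAAT, or to the E-box letters CACGTG. The marked motifs do not overlap each other in these windows.
Slc25a1: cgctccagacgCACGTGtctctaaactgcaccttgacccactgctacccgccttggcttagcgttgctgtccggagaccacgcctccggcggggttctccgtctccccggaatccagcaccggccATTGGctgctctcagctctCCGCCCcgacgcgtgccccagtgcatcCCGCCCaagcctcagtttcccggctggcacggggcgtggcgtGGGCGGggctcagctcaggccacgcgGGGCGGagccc
Slc25a10: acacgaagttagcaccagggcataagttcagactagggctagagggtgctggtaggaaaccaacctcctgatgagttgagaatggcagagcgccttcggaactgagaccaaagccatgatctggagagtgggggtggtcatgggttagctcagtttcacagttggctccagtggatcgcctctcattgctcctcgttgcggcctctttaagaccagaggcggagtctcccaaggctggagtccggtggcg
The Slc25a1 window was 70% G and C and held 4 GC boxes, 106, 79, 37 and 11 bases before the start, 1 CCAAT box at 125 bases and 1 E-box at 239 bases. The Slc25a10 window was 56% G and C and held none of these motifs. Of all 32851 RefSeq windows of this length, 32.7% held a GC box, 33.8% a CCAAT box and 6.02% an E-box. Of 44 windows for the 34 members that matched, 70.5% held a GC box, 47.7% a CCAAT box and 18.2% an E-box. The palindromic motif of nuclear respiratory factor NRF1 was in 0.782% of all windows and 0 of the members' windows, the estrogen-related receptor motif AAGGTCA in 4.08% and 2.27%, and the TATA motif TATAAA in 12.4% and 4.55%. A match is a run of letters, not a bound site.

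The carriers of the malate-aspartate shuttle, which moves reducing equivalents from cytosolic NADH into the matrix, showed no call. Slc25a11 (chromosome 11, 70644196 to 70647479) was at 155, 149 and 159 FPKM in controls, 155, 165 and 172 with DOX, and 149, 150 and 156 with TPTN, with overlapping groups. Slc25a11 shares 8.92% of its exonic bases with Rnf167 on the opposite strand. Slc25a13 (citrin), an aspartate-glutamate carrier, averaged 27.9 ± 1.97 FPKM (SD, n = 3) in control, 27.1 ± 0.943 in DOX and 27.1 ± 0.711 in TPTN. Slc25a12 (aralar), the other aspartate-glutamate carrier, averaged 16.0 ± 1.08, 16.7 ± 1.24 and 16.2 ± 0.482 FPKM in the same order. For FPKM as deposited, the 95% intervals of the log2 changes of Slc25a12 and Slc25a13 lay within -0.20 and 0.21 in all 3 comparisons. These intervals do not cover the choice of scaling. Under other scalings Slc25a12 and Slc25a13 reached -0.10 and -0.20 in DOX against control, and 0.09 and 0.13 in TPTN against DOX. Neither was called in any of 19 fits.

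Among the shuttle's enzymes, 1 of 4 was called. Got1, the cytosolic aspartate aminotransferase, fell in TPTN against DOX (log2 change -0.31, limma adjusted p 0.0308) and in TPTN against control (-0.36, limma adjusted p 0.0304), from 286 and 276 to 222 FPKM. The 3 TPTN libraries held 228, 218 and 221 FPKM, all below the lowest library of the other groups at 271. Got1 was past the threshold in 9 of 19 fits for TPTN against DOX and in 8 of 19 for TPTN against control, with the same sign in each. For TPTN against DOX each of the 3 other scalings ended the call, with log2 changes of -0.30 for median ratios (limma adjusted p 0.0630), -0.13 for quantile normalization (0.312) and -0.18 without mitochondrially encoded genes and copies (0.128). For TPTN against control only quantile normalization among them did (-0.35, limma adjusted p 0.0661). Got2, Mdh1 and Mdh2, the other enzymes, were not called in any comparison.

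Among the amino acid and carnitine carriers, none of the 7 tested of 9 was called. Slc25a20, the carnitine-acylcarnitine carrier, was at 28.1, 30.3 and 28.8 FPKM in controls, 30.5, 30.6 and 29.7 with DOX, and 26.1, 26.2 and 31.3 with TPTN. TPTN replicate 3 lay above all libraries and the other TPTN libraries below all, so the groups overlapped. The log2 changes were 0.06 in DOX against control and -0.12 in TPTN against DOX, neither of them called, and both changed sign when libraries were scaled without mitochondrially encoded genes and copies (-0.10 and 0.01). The carnitine enzymes Cpt1a, Cpt1b, Cpt2 and Crat had 0 of 4 called in each comparison, with Cpt1b, the muscle form of the outer enzyme, at 137, 153 and 132 FPKM on average in control, DOX and TPTN.

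Slc25a22, a glutamate carrier, had the highest log2 change of any member in TPTN against control, 0.37 with a standard error of 0.13 and a limma adjusted p of 0.257. Its control libraries spread from 3.33 to 5.40 FPKM and overlapped the TPTN libraries at 5.26 to 6.66. Slc25a15, an ornithine carrier, was at 1.15 to 1.90 FPKM in DOX and 1.84 to 2.07 in TPTN libraries, a log2 change of 0.25 (limma adjusted p 0.194). The other tested members of this role, Slc25a26 for S-adenosylmethionine, Slc25a29 for basic amino acids, Slc25a38 for glycine and Slc25a44 for branched-chain amino acids, averaged from 2.31 to 5.64 FPKM and had no unadjusted limma p under 0.05. Slc25a29 lies 162 bases from Slc25a47, a carrier best known from liver, on chromosome 12, and the pair averaged 2.31 and 1.23 FPKM.

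Among the 12 carriers of cofactors, nucleotides, iron and glutathione, all were tested and none was called. Slc25a28 (mitoferrin 2), an iron importer of the inner membrane (chromosome 19, 43663801 to 43674881), was at 5.43, 5.16 and 5.43 FPKM in controls, 6.33, 5.22 and 6.26 with DOX, and 4.48, 4.93 and 4.59 with TPTN. The TPTN libraries were below every other library, and DOX replicate 2 lay with the controls. The log2 change in TPTN against DOX was -0.29 with a standard error of 0.08 and a limma adjusted p of 0.0728. In DOX against control it was 0.13 (limma adjusted p 0.447), and the sign turned to -0.01 when libraries were scaled without mitochondrially encoded genes and copies.

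Slc25a37 (mitoferrin 1), the iron importer best known from red cell precursors, was at 2.97, 2.29 and 2.57 FPKM in controls, 2.92, 2.45 and 2.57 with DOX, and 2.80, 2.96 and 2.74 with TPTN, with overlapping groups. Its log2 change in TPTN against DOX was 0.08, with a 95% interval from -0.11 to 0.26. Erythroid markers, 6 of 6 of them in the table, summed to 396 to 945 FPKM in control, 331 to 971 in DOX and 447 to 603 in TPTN libraries, and their part in the level of Slc25a37 was not tested.

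Of 13 genes of iron-sulfur cluster and heme synthesis, 1 was called. Cpox, an enzyme of heme synthesis, rose in TPTN against DOX by a log2 change of 0.34 (limma adjusted p 0.0352), from 3.71 to 4.96 FPKM. Its sign was the same in 19 of 19 fits, and it was called in 10 of them.

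Slc25a36 and Slc25a33 carry pyrimidine nucleotides. Slc25a36 (chromosome 9, 97074961 to 97111157) was at 3.78, 3.36 and 3.72 FPKM in controls, 3.22, 3.11 and 2.89 with DOX, and 3.59, 4.19 and 3.81 with TPTN, so the DOX libraries were below all others. Its log2 changes were -0.18 in DOX against control (limma adjusted p 0.235) and 0.26 in TPTN against DOX (limma adjusted p 0.0913). In TPTN against DOX it passed with median ratios scaling (0.26, limma adjusted p 0.0418) and with the sum taken without mitochondrially encoded genes and copies (0.36, limma adjusted p 0.0288). Slc25a33 averaged 4.70 ± 0.794, 4.66 ± 0.240 and 4.89 ± 0.262 FPKM (SD, n = 3) in control, DOX and TPTN, and 14.9% of its exonic bases overlap a gene on the opposite strand.

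Slc25a39 and Slc25a40 carry glutathione into mitochondria, and Slc25a39 was the more abundant, at 24.3 against 0.743 FPKM over the 9 libraries. Neither was called. Slc25a51, which carries NAD, averaged 8.56 ± 0.584, 8.88 ± 0.927 and 9.43 ± 0.675 FPKM in control, DOX and TPTN. Slc25a42, a carrier of coenzyme A, averaged 9.13 ± 1.23, 8.05 ± 0.981 and 8.72 ± 0.672 FPKM. Both had overlapping groups in every comparison. Slc25a16, Slc25a17 and the folate carrier Slc25a32 lay between 1.72 and 4.11 FPKM on average.

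Among carriers related to the uncoupling proteins, on the outer membrane or without a settled substrate, none of the 7 tested of 10 was called. Slc25a34, a carrier without a settled substrate, was the fifth most abundant member at 53.3 FPKM and lies on chromosome 4 at 141618824 to 141623821. Its libraries were at 52.0, 62.1 and 52.0 FPKM in controls, 58.6, 53.2 and 61.1 with DOX, and 45.6, 46.1 and 49.2 with TPTN. All TPTN libraries were below all others, and the log2 changes were -0.29 in TPTN against DOX (limma adjusted p 0.0886) and -0.23 in TPTN against control (limma adjusted p 0.271). Over 19 fits the change in TPTN against DOX ranged from -0.34 to -0.14 and the limma adjusted p from 0.0545 to 0.442. The value of -0.14 came with another scaling. The TPTN libraries were also the lowest for Slc25a4 and Slc25a28.

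Slc25a46, an outer membrane protein of the family that takes part in mitochondrial shape, was the member with the smallest p in DOX against control. It was at 9.54, 9.98 and 9.58 FPKM in controls, 8.45, 7.95 and 8.01 with DOX, and 9.44, 9.55 and 8.99 with TPTN, with every DOX library below every other. The log2 change was -0.23 in DOX against control (standard error 0.06, limma adjusted p 0.0794) and 0.18 in TPTN against DOX (limma adjusted p 0.136). With 3 other scalings Slc25a46 passed in DOX against control, at -0.29 (adjusted p 0.0483) with limma on median ratios, -0.30 (adjusted p 0.0442) on quantile-normalized values and -0.38 (adjusted p 0.0261) on sums without mitochondrially encoded genes and copies. It shares 7.06% of its exonic bases with an opposite-strand gene. Slc25a35, also without a settled substrate, shares 31.3% of its exonic bases with Rangrf on the opposite strand, so its level of 2.40 FPKM is uncertain.

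**Figure D3:**
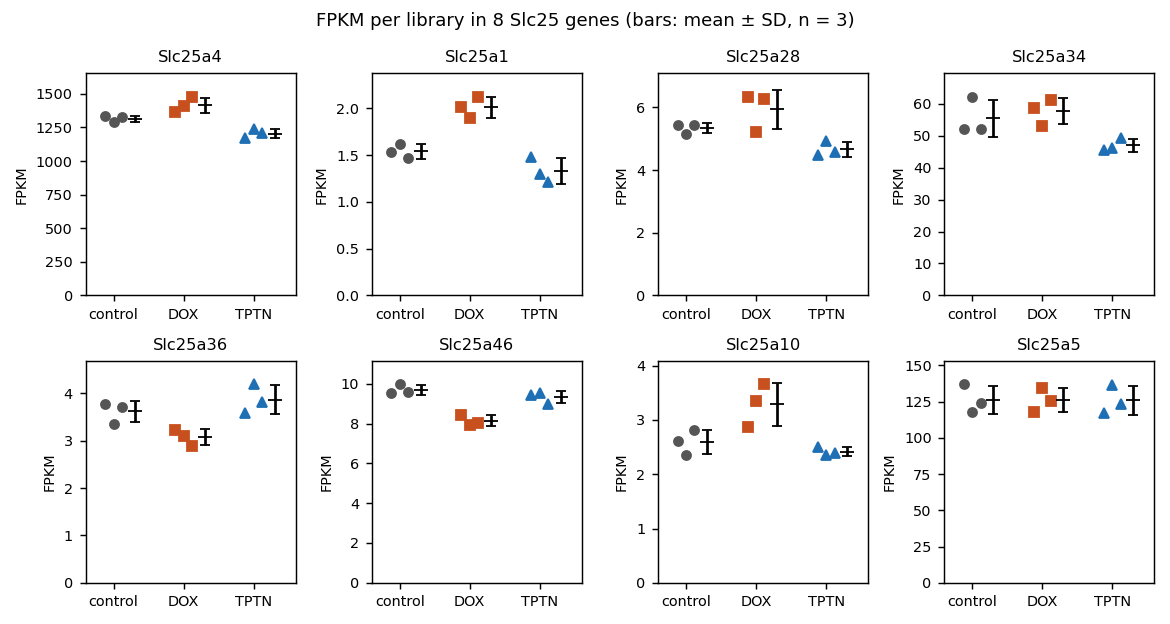
FPKM of 8 Slc25 genes in each library (points), with the mean and SD of the 3 libraries of a group beside them. DOX is highest for Slc25a1 and Slc25a10 and lowest for Slc25a36 and Slc25a46, TPTN is lowest for Slc25a4, Slc25a28 and Slc25a34, and the Slc25a5 means are all about 126 FPKM.

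Ratios between related carriers within a library do not depend on the library total. The ratio of Slc25a4 to Slc25a5 was 9.73, 10.9 and 10.7 in controls, 11.6, 10.5 and 11.8 with DOX, and 9.96, 9.04 and 9.77 with TPTN. All TPTN libraries were below all DOX libraries, a mean log2 difference of -0.23 with an exact two-sided permutation p of 0.1, the smallest that 3 against 3 libraries allow. The ratio of Slc25a28 to Slc25a37 averaged 2.07 ± 0.215 (SD, n = 3) in control, 2.25 ± 0.171 in DOX and 1.64 ± 0.0414 in TPTN. Its TPTN libraries, at 1.60 to 1.67, were below the 1.83 to 2.25 of control and the 2.13 to 2.44 of DOX.

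The ratio of Slc25a39 to Slc25a40 was 27.1 to 31.6 in control, 37.2 to 42.9 in DOX and 25.0 to 34.2 in TPTN libraries, so DOX stood above both. The ratio of Slc25a23 to Slc25a24 was 3.01 to 3.76 in control, 3.91 to 6.92 in DOX and 3.61 to 3.71 in TPTN libraries, with the widest spread in DOX. The ratio of Slc25a36 to Slc25a33 was lower in all DOX libraries, at 0.627 to 0.698, than in all TPTN libraries, at 0.699 to 0.850. The ratio of Slc25a12 to Slc25a13 stayed between 0.571 and 0.685 in all 9 libraries, with overlapping groups. Over the 18 ratio comparisons the smallest exact permutation p was 0.1 and its Benjamini-Hochberg adjusted value 0.225, so none passed, and none could.

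**Figure D4:**
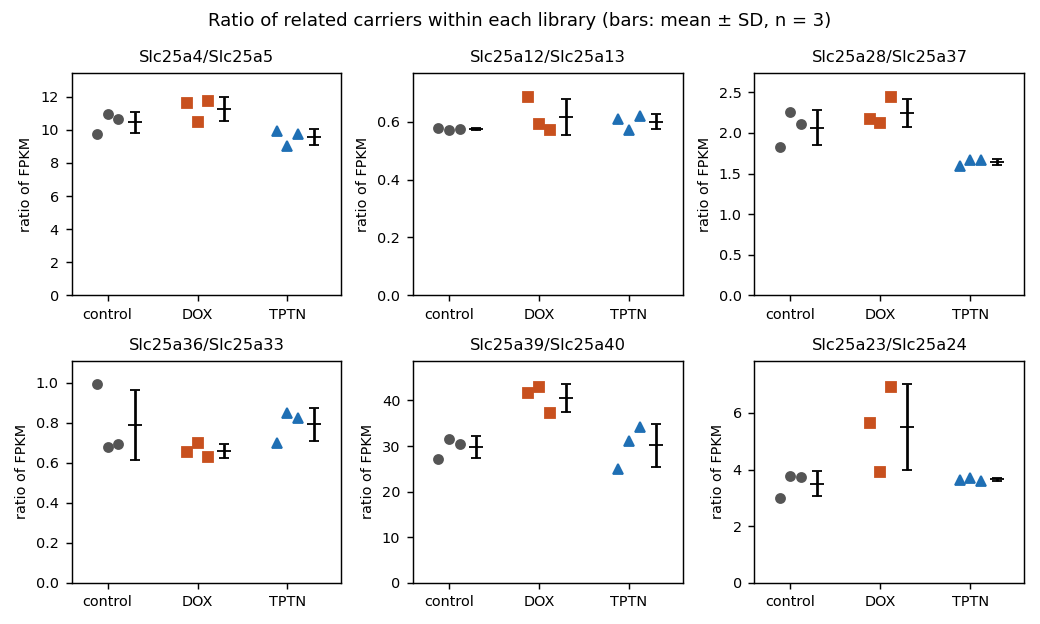
Ratio of FPKM between 6 pairs of related Slc25 genes in each library (points), with the mean and SD of the 3 libraries of a group. The ratio of Slc25a28 to Slc25a37 is lowest in TPTN, and that of Slc25a39 to Slc25a40 is highest in DOX.

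The summed FPKM of the 44 members was 2048, 1984 and 2037 in controls, 2097, 2154 and 2219 with DOX, and 1843, 1952 and 1922 with TPTN. The groups did not overlap, and the difference of means was 6.61% for DOX against control and -11.6% for TPTN against DOX. With the sum taken without mitochondrially encoded genes and copies, these differences were instead -4.99% and -3.02%. With median ratios scaling they were 2.07% and -11.0%, and the DOX libraries (1983 to 2264) overlapped the control libraries (2075 to 2082). For TPTN against control the difference was -5.78% as deposited, -9.18% with median ratios and -7.86% without mitochondrially encoded genes and copies. These 2 groups did not overlap under any of these scalings. Most of the sum is Slc25a4: without it the other members summed to 696 to 716 FPKM in control, 731 to 748 in DOX and 674 to 718 in TPTN libraries.

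Other genes of the carrier system were set beside the family. Of the carrier proteins with other symbols, Mtch1, Mtch2, Ucp2 and Ucp3 were tested and 0 of 4 called in each comparison, and Ucp1, the brown fat uncoupling protein, was listed at 0 in 8 of 9 libraries. Ucp2 was at 8.75 FPKM in DOX replicate 1 and at 3.50 to 4.46 in the other 8 libraries. The 7 genes of the TIM22 route, which inserts the carriers, had 0 called in each comparison, and the 5 tested genes for pyruvate carriers and sideroflexins also 0. Of the 3 outer membrane channels, Vdac2 rose in DOX against control from 54.1 to 65.1 FPKM (log2 change 0.26, limma adjusted p 0.0452), called in 5 of 19 fits and above 0 in all, while Vdac1 and Vdac3 were not called. Each of the 3 other scalings ended the Vdac2 call: the log2 change was 0.20 with median ratios (limma adjusted p 0.146), 0.13 with quantile normalization (0.214) and 0.10 without mitochondrially encoded genes and copies (0.325).

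The authors' deposited table also carries a test per gene, whose header does not name the groups. There, in the authors' deposited table, marks of yes stand at 7 of the 44 members (15.9%), beside 9.89% of all genes. A q-value under 0.05 stands at 0 members, beside 3.58% of all genes. All genes here means 29237, of which 12500 had a mean of at least 0.5 FPKM. Of the 44 members 37 did, so these shares are not over genes of like level.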

How the data were processed

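Heart RNA was measured in 9 libraries, 3 each of control, DOX and TPTN. The deposited table holds FPKM per gene. Per the submitters' processing notes the authors used cutadapt 1.9, HISAT2 2.0.4, StringTie 1.3.4d, DESeq2, edgeR and GRCm38, with no step named for each; the deposited p-values and q-values do not name their groups. No depth per library is given or used, so no counting interval was computed. Positions came from GENCODE M21 (GRCm38), which held 44 of 44 members, and promoter windows from RefSeq (GRCm38.p6).

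limma 3.58.1 (R 4.3.3) was fitted to log2(FPKM + 1) of the 12500 genes with a mean of at least 0.5 FPKM, as 1 model of 3 group means over 9 libraries (6 residual degrees of freedom), with trended, robust empirical Bayes, two-sided, adjusted over all genes tested. Alternatives were the groups compared only, no robust step, a replicate block, a pseudocount of 0.1, other filters, 3 other scalings and each library left out. The scaling without mitochondrial transcripts left out 37 mitochondrially encoded genes and 7 abundant nuclear copies of them. The fitting code was tested on simulated data. Ratios were tested by exact permutation (scipy 1.17.1). Described in full were members past the threshold, the 8 most abundant and 9 chosen for their roles, 16 in all. Counts and medians over the family include 1 member that, like 1 gene of the iron-sulfur list, is not reported here, and the plots leave that member out. The members, gene lists and tests were chosen with earlier results of these data known.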

Additional observations from a re-analysis of the deposited data

How the results depend on the processing

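The 2 members lower in TPTN than in DOX became 0 when only the groups compared were fitted, with the replicate block, with no filter on low values and when libraries were scaled to the sum without mitochondrially encoded genes and copies. They became 1, Slc25a1, with median ratios scaling and with quantile normalization, and stayed 2 without the robust step, with a pseudocount of 0.1 and with a minimum mean of 1 FPKM. Leaving out 1 library gave 0 to 3 members: 1 without each control library, 3 without DOX replicate 1, and 0 without DOX replicate 2, DOX replicate 3 or any of TPTN replicates 1, 2 and 3. Members higher in TPTN than in DOX, 0 as reported, became 1 (Slc25a36) with median ratios scaling and 2 (Slc25a36 and Slc25a46) with the sum without mitochondrially encoded genes and copies. Members lower in DOX than in control, 0 as reported, became 1 (Slc25a46) with each of these 2 scalings and with quantile normalization. The causes were not tested, and each left-out fit also had fewer libraries. The members' median log2 change in DOX against control, 0.05, was -0.06 with quantile normalization and -0.10 with the sum without mitochondrially encoded genes and copies, which also gave 0.10 in TPTN against DOX.

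Over all tested genes, calls in DOX against control were 279 higher and 50 lower, but 61 and 209 with the sum without mitochondrially encoded genes and copies, 110 and 63 with median ratios and 76 and 67 with quantile normalization. In TPTN against DOX they were 99 higher and 308 lower, but 542 and 129, 149 and 280, and 173 and 163 in that order. With no filter, 2 genes were called in TPTN against DOX and 2 in DOX against control. With only the groups compared, DOX against control gave 149 higher and 27 lower. Leaving out 1 library gave 2 to 268 higher calls in DOX against control and 31 to 330 lower calls in TPTN against DOX. TPTN against control had 42 higher and 48 lower calls, 1 and 5 with no filter, and 4 to 85 and 14 to 74 with 1 library left out. Deviations from the group means correlated at -0.26 to 0.02 between same-numbered libraries. With 3 libraries a group these values cannot settle whether same-numbered libraries were paired. The replicate block left 141 higher and 29 lower calls in DOX against control and 37 and 122 in TPTN against DOX. Of 864 values of named members under alternatives, 767 kept their direction and side of the threshold, 23 lost a call, 2 gained one, and 72 without a call changed sign. Named members here are those chosen by the rule, so Slc25a10, Slc25a15, Slc25a22, Slc25a24 and Slc25a46 are not in this count. Slc25a46 also gained a call in 3 of 19 fits in DOX against control and in 1 of 19 in TPTN against DOX. Slc25a10 gained 1 in TPTN against DOX, and Slc25a15, Slc25a22 and Slc25a24 gained none.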
